A study of Mus musculus with 8 samples.

Results

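The genes described here encode the mTOR complexes and the machinery that reports amino acid supply to them. They were chosen by symbol, from a fixed list of 37 genes, and all 37 were among the 24421 gene symbols of the count table. RNA was measured in CD4+ T cells, the helper class of T cells, sorted from enzyme-treated knee joint tissue, taken from male mice at an age of 16 weeks. All mice had antigen-induced arthritis, a joint inflammation driven by an immune response to an injected antigen. There were 4 wild-type libraries and 4 libraries labelled Slc7a5 knockout. The labels give neither how Slc7a5 was deleted nor in which cells, and whether separate animals gave the separate libraries is not recorded. The p-values therefore rest on the variation among these 8 libraries, part of which may be technical.

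mTORC1 is a protein kinase complex that switches cells towards growth, protein synthesis and glycolysis when nutrients and growth signals are both present. Amino acids act on it at the lysosome, where the Rag GTPases, anchored by the Ragulator complex, bring mTORC1 to its activator Rheb. Slc7a5 is the light chain of LAT1, a transporter of leucine and other large neutral amino acids that activated T cells use to feed this pathway. Most of this control acts on proteins, through phosphorylation, nucleotide state and location, none of which RNA counts measure.

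The libraries held between 18837650 and 36436923 counts. Knockout replicate 4 stood apart, with 5221 genes detected against 7684 to 10139 in the other 7 libraries and a highest Spearman correlation with another library of 0.544. It held Cd3e, a T cell receptor chain, at 382 CPM (counts scaled to a common library total after TMM normalization) but Cd4 at 1.78 CPM, where the other libraries had 344 to 570.3 CPM. Cd3e ranged from 407 to 554 CPM in wild type and from 330.2 to 382 CPM in knockout. The 10 T cell markers summed to 8805 to 12194 CPM in wild type and 6698 to 8945 CPM in knockout, below all wild-type libraries in 3 of 4. The 12 markers of MHC class II and myeloid cells summed to 1443 to 3437 CPM in wild type and 2202 to 12126 CPM in knockout, above all wild-type libraries in 3 of 4. Of those, Adgre1 was at 0 in all libraries. Slc7a5 itself had counts in 3 of 4 wild-type libraries (10.7, 7.01, 12.6 and 0 CPM) and in 0 of 4 knockout libraries. An exact permutation test of the means gave a two-sided p of 0.143. With counts in only 3 libraries that test can give no smaller p, so it cannot decide. In an edgeR fit of unfiltered genes the adjusted p of Slc7a5 was 0.365, and in DESeq2 it was 0.0183. Of the 1407 genes within 1.5 times its wild-type mean, Slc7a5 included, 191 (13.6%) were without counts in knockout. In bulk RNA, fewer cells of a type and less RNA per cell cannot be told apart.

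Promoter sequence is one property of these genes that the choice of members did not use. The E-box core CACGTG, bound by the lysosomal regulators TFEB and TFE3 and by MYC, was searched in RefSeq windows from 250 bases before to 50 bases after each start (GRCm38.p6), where 32 of the 37 genes had an entry. The motif reads the same on both strands. It was in 6 of 34 member windows (17.6%) and in 2349 of all 32851 windows (7.15%), and the 6 genes were Rheb, Rragc, Lamtor1, Lamtor4, Fnip1 and Tbc1d7. The longer TCACGTGA, which contains CACGTG, was in 0 member windows and in 0.974% of all windows. The ATF4 composite element TGATGNAA, searched on both strands, was in 1 member window, that of Lamtor4, and in 3.97% of all windows. These matches are letters in a window and no test was made of them. The stretches below are shown because they carry the E-box in capitals and lie outside annotated exons. They belong to Rragc (chr4:123917295-123917352, plus strand), Lamtor4 (chr5:138255336-138255409, plus strand, with 2 E-boxes), Lamtor1 (chr7:101905743-101905800, plus strand) and Tbc1d7 (chr13:43171523-43171580, minus strand), each written 5′ to 3′ along the gene.
Rragc: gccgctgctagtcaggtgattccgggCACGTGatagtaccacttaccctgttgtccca
Lamtor4: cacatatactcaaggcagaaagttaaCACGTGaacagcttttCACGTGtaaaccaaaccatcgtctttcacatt
Lamtor1: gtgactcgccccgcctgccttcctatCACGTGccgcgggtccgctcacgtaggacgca
Tbc1d7: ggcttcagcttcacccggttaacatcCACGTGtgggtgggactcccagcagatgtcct

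No member passed edgeR's test between genotypes, and the members differed in how reliably they were seen. Of the 37 genes, 13 had at least 1 count in all 8 libraries, and 8 of those had at least 10 counts in each: Rheb, Lamtor2, Lamtor3, Lamtor5, Sec13, Seh1l, Rictor and Rraga. At the other end, Mlst8 had counts in 2 libraries, and Rragd, Sesn2 and Tsc2 in 3. Members detected numbered 34, 30, 33 and 28 in wild-type replicates 1 to 4 and 30, 28, 31 and 15 in knockout replicates 1 to 4. Without knockout replicate 4, 21 members were seen in every library, and 8 of these were at 0 in that library alone (Mtor, Lamtor4, Slc38a9, Fnip1, Nprl2, Rps6kb1, Rps6kb2 and Eif4ebp2). Such gaps were common at these levels for all genes. Among genes with a mean of 10 to 50 CPM, 22.1% had a count in all 8 libraries, as had 4 of 14 members, and among genes at 100 CPM and over it was 92.1%, and 4 of 5 members.

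**Figure D1:**
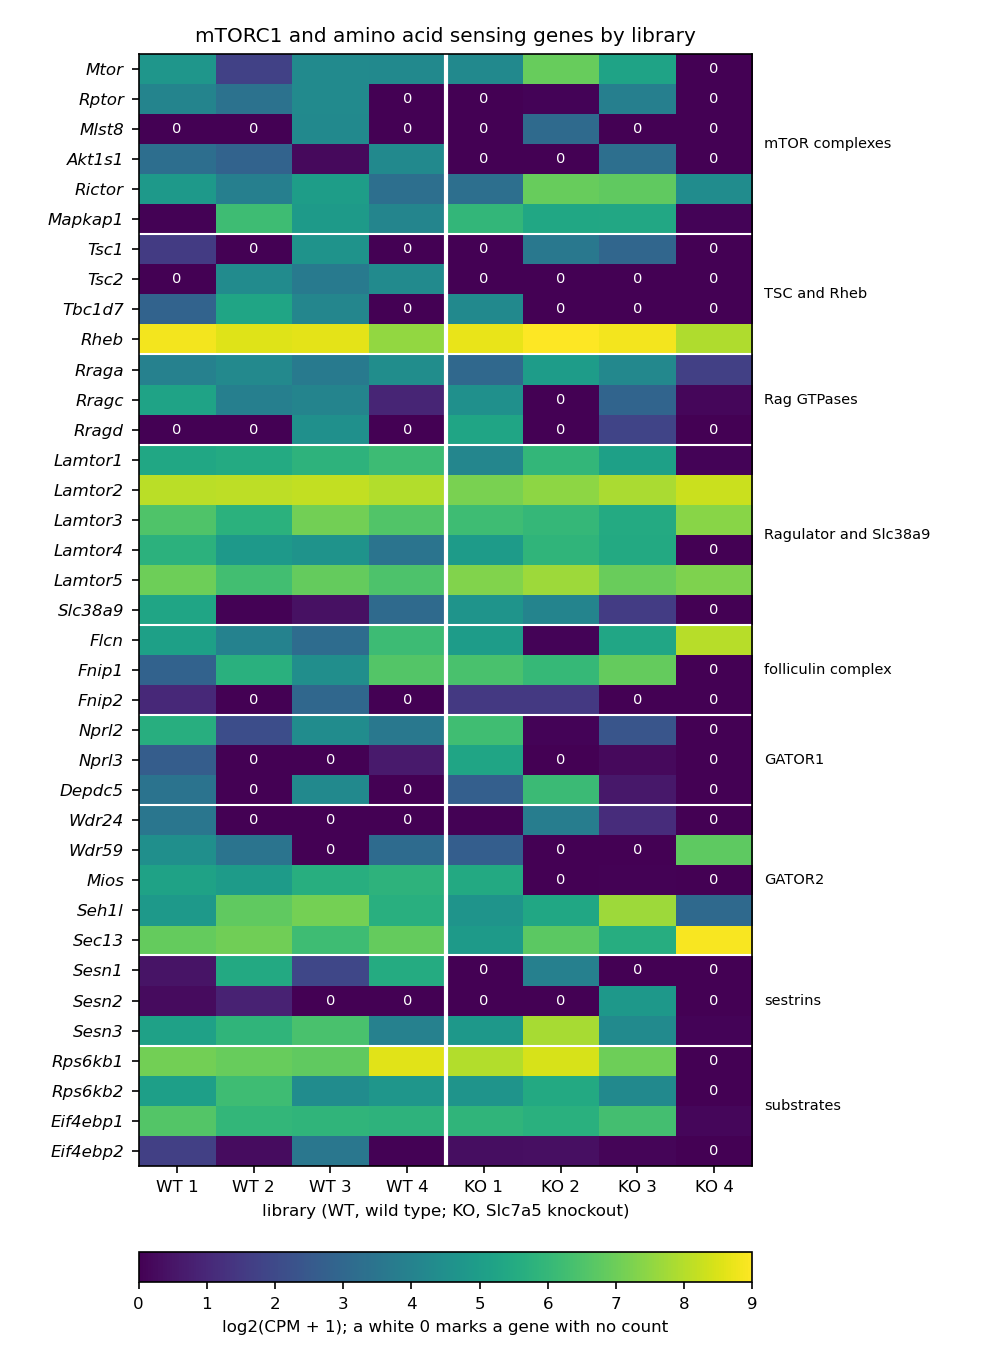
Colour gives log2(CPM + 1) for each of the 37 genes (rows, grouped by role) in each library (columns, 4 wild type and 4 Slc7a5 knockout), and a white 0 marks no count. Rheb and Lamtor2 are bright in all 8 libraries, while knockout replicate 4 has 22 genes at 0.

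Low counts were removed before the test (edgeR's filterByExpr), and 30 of the 37 genes passed that filter. The quasi-likelihood test of edgeR, adjusted by Benjamini-Hochberg over 8489 genes, was the main test, and 0 of these 30 passed at an adjusted p under 0.05, as did 0 of all tested genes (percent called 0.0). At an unadjusted p under 0.05 there were 0 of 30 members, against 3.84% of all tested genes (1.87% higher and 1.97% lower in knockout). The smallest unadjusted p among the 30 was 0.166, for Lamtor5, and every adjusted p was 0.9999. limma voom called 0 members and 0.0471% of its genes. DESeq2, run without that filter, called 1 member, Tsc2, where it called 3.63% of its genes. No member had groups without overlap, where 6.14% of tested genes did (1.52% higher and 4.62% lower in all knockout libraries). Of the 30 tested members, 12 had higher and 18 lower estimates in knockout (40.0% higher, against 45.0% of all tested genes). Their median log2 fold change was −0.11, beside −0.12 over all tested genes, and their median standard error (SE) was 1.74, beside 1.70.

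**Figure D2:**
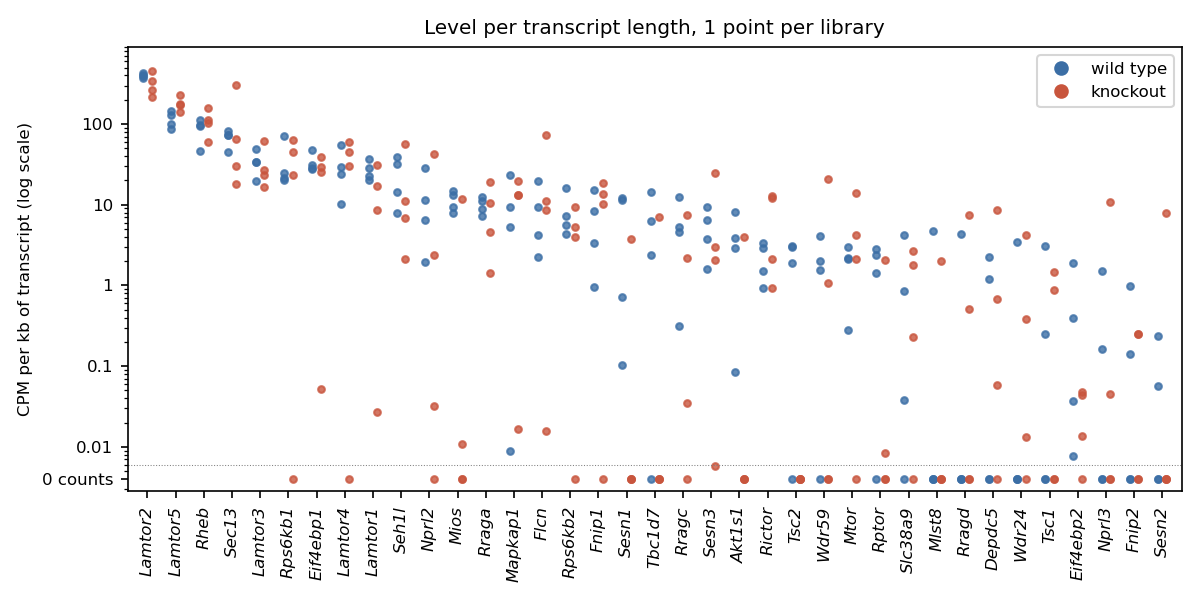
Each point is 1 library, wild type in blue and knockout in red, and the log axis gives CPM per kilobase of the longest annotated transcript, with libraries without a count on the bottom line. Genes are ordered by the wild-type mean, from Lamtor2 at 402 down to Sesn2 at 0.0738 CPM per kb, and the 2 colours interleave for most genes.

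Per length of transcript, small adaptor subunits and Rheb led the list and the kinase itself was in its lower part. In wild type Lamtor2 was at 402 ± 22.5 CPM per kb of its longest transcript (SD, n = 4, as for all levels here), Lamtor5 at 116 ± 25.9, Rheb at 87.7 ± 29.1 and Sec13 at 68.5 ± 16.1 CPM per kb. Lamtor2 lay above the other 3 in every wild-type library. Rheb lay within the spread of both Lamtor5 and Sec13, while Lamtor5 was above Sec13 beyond their SDs. Mtor was at 1.91 ± 1.16, Rptor at 1.67 ± 1.26 and Rictor at 2.18 ± 1.15 CPM per kb, and these did not differ beyond their spread. The 5 Ragulator subunits, which form 1 complex, differed in level per length. Lamtor3 was at 34.1 ± 12.1, Lamtor4 at 29.5 ± 18.5 and Lamtor1 at 27.2 ± 7.22 CPM per kb, and these 3 lay within each other's spread. The counts do not show which transcript of a gene was present, so this order rests on the longest annotated one. In libraries made from little RNA, how the length and GC content of a transcript alter its yield was not tested.

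The kinase complexes were measured at low levels with wide spread. Mtor, the kinase shared by mTORC1 and mTORC2 (chr4:148448582-148557685), was at 25.8, 2.38, 18.8 and 18.3 CPM in wild-type replicates 1 to 4. In knockout replicates 1 to 4 it was at 18.3, 118, 36.3 and 0 CPM. Knockout thus held both the highest and the lowest library, and the log2 fold change was 1.40 (SE 1.87, 95% interval −2.67 to 5.48). Without knockout replicate 2 it was 0.13, and with the replicate number as a block 0.16. Rictor, the scaffold that defines mTORC2 (chr15:6708349-6800401), was at 27.2, 13.9, 31.3 and 8.70 CPM in wild type, against 8.76, 119, 112 and 19.9 CPM in knockout. Knockout replicates 2 and 3 stood above all wild-type libraries and the other two lay among them. Its estimate was the highest of the 16 most abundant members (log2 fold change 1.68, SE 1.31, interval −1.18 to 4.53, edgeR unadjusted p = 0.225). Mapkap1, which encodes the mTORC2 subunit SIN1, ranged from 0.0278 to 73.4 CPM in wild type and from 0.0522 to 60.5 CPM in knockout (a log2 fold change of 0.25, SE 1.90; 1.20 without wild-type replicate 2). The mTORC1 scaffold Rptor had counts in 3 wild-type and 2 knockout libraries, with at most 18.9 CPM. Mlst8, a subunit of both complexes, was seen in 1 library of each genotype, and Akt1s1, the inhibitory substrate PRAS40, in 4 wild-type and 1 knockout library.

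Rheb, the small GTPase that activates mTORC1 directly, was the most abundant member by CPM (chr5:24802823-24842361). It was at 459, 381, 394 and 186 CPM in wild type, against 420.2, 639, 459 and 240.5 CPM in knockout. The fourth library was the lowest of each genotype, and the genotypes overlapped. The log2 fold change was 0.31 (SE 0.35), and its 95% interval ran from −0.46 to 1.08, or from 0.727-fold to 2.11-fold of wild type. Without knockout replicate 4 it was 0.49.

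Its inhibitor, the TSC complex, was at the edge of detection. Tsc2, the subunit that switches Rheb off (chr17:24595816-24632676), was at 0, 19.1, 12.0 and 18.7 CPM in wild type, from 0, 528, 390 and 424 counts, and at 0 in all 4 knockout libraries. With the knockout libraries pooled and their total of 0 replaced by 3 counts, the level was at least 324-fold lower, a bound for counting error alone. Yet of the 1721 genes within 1.5 times its wild-type mean, Tsc2 included, 122 (7.09%) lacked counts in all 4 knockout libraries. Tsc2 did not pass the filter. Its adjusted p was 0.365 in an edgeR fit of unfiltered genes and 0.00428 in DESeq2. Its exons share 693 bases with Pkd1 on the other strand, and without a known strand setting reads of both cannot be told apart. Tsc1, its partner, had counts in 2 libraries of each genotype, at 1.95 and 23.5 CPM in wild type and 11.3 and 6.77 CPM in knockout. Tbc1d7, the third subunit, had counts in 3 wild-type libraries (6.34, 38.0 and 16.5 CPM) and 1 knockout library (18.4 CPM).

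Among the Rag GTPases, only Rraga was seen in every library with at least 10 counts. It encodes RagA, which is active in its GTP form when amino acids are plentiful. It was at 14.5, 17.8, 11.7 and 20.4 CPM in wild type, against 7.33, 30.7, 17.2 and 2.30 CPM in knockout, so knockout spanned the wild-type range on both sides. Rragc, one of the possible partners in the Rag dimer, ranged from 0.927 to 36.5 CPM in wild type and from 0 to 21.9 CPM in knockout. Rragd, the alternative partner, was seen in 1 wild-type library (21.8 CPM) and 2 knockout libraries (38.2 and 2.59 CPM).

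Ragulator, the scaffold that holds the Rags on the lysosome, was the best measured complex, with 3 of its subunits above 10 counts in all 8 libraries. Lamtor2 (chr3:88549819-88552951) was at 265, 274, 285 and 249.7 CPM in wild type, the smallest spread relative to its mean among the 16 most abundant members. In knockout it was at 144, 176, 231 and 307 CPM, with replicates 1 to 3 below every wild-type library and replicate 4 above them. The log2 fold change was −0.33 (SE 0.32, interval −1.02 to 0.37, 0.493-fold to 1.29-fold) and −0.56 without knockout replicate 4. It turned to 0.62 with an offset for GC content per library, for a transcript with 57.0% GC. Lamtor5 (chr3:107278858-107284082) went the other way, at 127, 77.3, 115 and 89.0 CPM in wild type and 156, 204, 123 and 153 CPM in knockout. Knockout replicates 1, 2 and 4 exceeded every wild-type library and replicate 3 lay just under the highest of them. Its log2 fold change was 0.64 (SE 0.43, interval −0.30 to 1.58, edgeR unadjusted p = 0.166), the same without knockout replicate 4, and 1.12 with the GC offset. The difference between these estimates of 2 subunits was not tested.

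The remaining Ragulator subunits overlapped between genotypes. Lamtor3 was at 91.5, 53.2, 134 and 93.5 CPM in wild type and 73.4, 63.3, 44.8 and 166 CPM in knockout. Knockout replicate 4 was again the highest library, and the log2 fold change moved from −0.10 (SE 0.68) to −0.64 without it and to 0.41 with the GC offset. Lamtor1, the lipid-anchored subunit, was at 39.7 to 71.2 CPM in wild type, against 16.7, 60.6, 33.3 and 0.0522 CPM in knockout (a log2 fold change of −0.93, SE 1.51; −0.53 without knockout replicate 4 and −1.68 without knockout replicate 2). Its exons share 600 bases with Lrrc51 on the other strand. Lamtor4 reached 53.5 CPM in wild type, against 29.4, 58.8, 43.5 and 0 CPM in knockout (a log2 fold change of 0.19, SE 1.74). Slc38a9, the lysosomal arginine sensor bound to Ragulator, ranged from 0.0361 to 37.9 CPM in wild type and from 0 to 24.1 CPM in knockout.

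**Figure D3:**
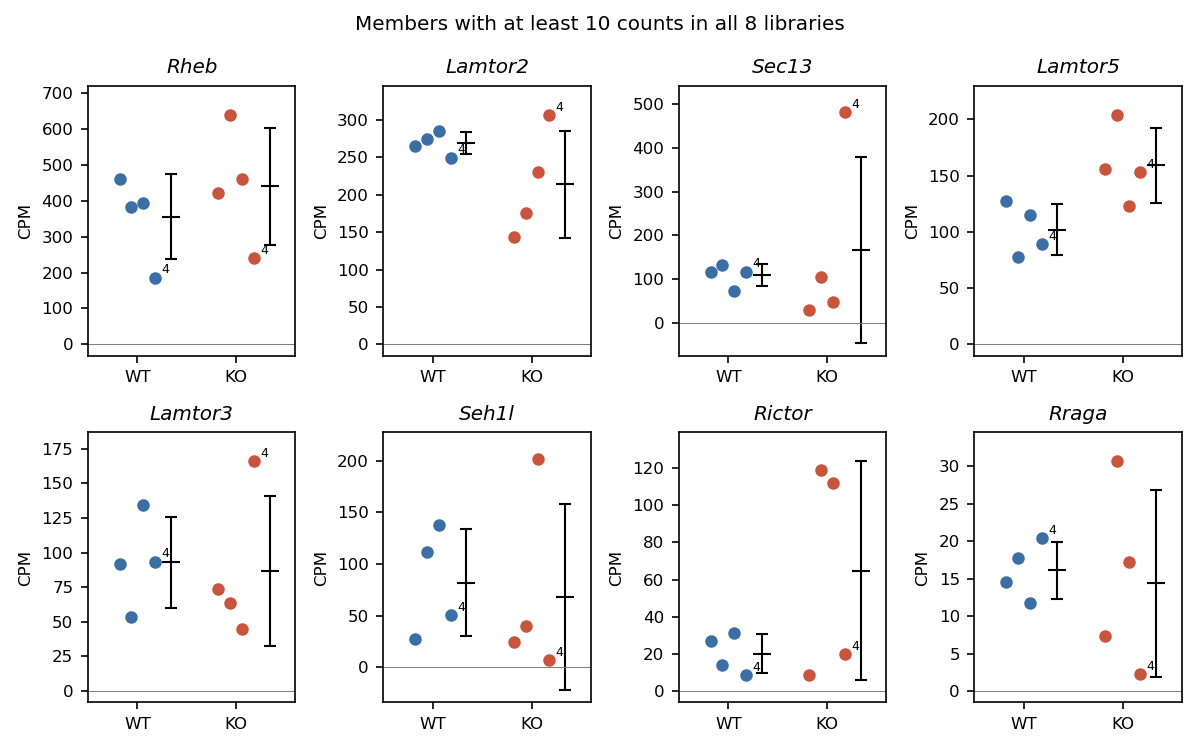
Points give CPM per library (WT, wild type; KO, knockout), replicate 4 of each genotype is marked 4, and bars show mean ± SD (n = 4). In the panels of Sec13, Lamtor2 and Lamtor3 knockout replicate 4 is the highest library, at 481, 307 and 166 CPM, and in every panel the genotypes overlap.

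The folliculin complex acts on RagC and RagD when amino acids return, and its members changed rank from library to library. Flcn, folliculin (chr11:59791408-59810039), was at 33.7, 14.9, 7.97 and 70.6 CPM in wild type, against 30.7, 0.0556, 39.3 and 260.5 CPM in knockout. The log2 fold change of 1.38 (SE 1.57) rested on knockout replicate 4, and it was −0.45 without that library. Fnip1, its binding partner, was at 6.03, 51.8, 20.8 and 95.9 CPM in wild type, against 84.4, 64.7, 116 and 0 CPM in knockout. Knockout replicate 3 lay above every wild-type library, and knockout replicates 1 and 2 above all but wild-type replicate 4. The log2 fold change was 0.60 (SE 1.61), 1.01 without the library at 0 and 1.34 without wild-type replicate 4. Fnip2, the paralogue, did not exceed 7.11 CPM in any library.

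GATOR1 switches RagA and RagB off, and its 3 genes were seen unevenly. Nprl2 was at 49.4, 3.36, 19.7 and 11.1 CPM in wild type, against 74.2, 0.0556, 4.18 and 0 CPM in knockout. Depdc5 had counts in 2 wild-type and 3 knockout libraries, with a highest level of 70.0 CPM in knockout replicate 2. Nprl3 had counts in 2 libraries of each genotype, with a highest level of 38.3 CPM in knockout replicate 1, and shares 1340 exon bases with Mpg on the other strand.

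GATOR2 opposes GATOR1 and receives the leucine signal from the sestrins. Its 2 abundant members, Sec13 and Seh1l, also serve in the nuclear pore, and Sec13 in the COPII vesicle coat, so their levels do not report on GATOR2 alone. Sec13 (chr6:113728052-113740681) was at 117, 131, 72.1 and 117 CPM in wild type, against 29.1, 105, 48.0 and 481 CPM in knockout. Knockout replicate 4 was far above the rest and knockout replicates 1 and 3 were below all wild-type libraries. The log2 fold change was 0.60 (SE 0.76) with all libraries and −0.87 without knockout replicate 4, so 1 library set its direction. Seh1l was at 27.8, 112, 138 and 50.5 CPM in wild type, against 24.3, 39.7, 202 and 7.47 CPM in knockout (a log2 fold change of −0.26, SE 1.04; 0.10 without knockout replicate 4 and −1.78 without knockout replicate 3). Mios, a GATOR2 subunit with no such second role known, was at 29.4 to 55.5 CPM in all 4 wild-type libraries. In knockout it was at 43.1 CPM in replicate 1 and at 0, 0.0398 and 0 CPM in the others, so the groups overlapped through that 1 library. Wdr59 was at 0 to 21.1 CPM in wild type, against 5.48, 0, 0 and 107 CPM in knockout, and Wdr24 did not exceed 13.1 CPM in any library.

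Sestrins bind GATOR2, and SESN2 releases it when it binds leucine, a substrate of LAT1. Sesn3 was at 34.1, 58.9, 84.5 and 14.6 CPM in wild type, against 27.1, 224, 18.9 and 0.0522 CPM in knockout. Its spread in knockout was wide, with the highest and the lowest library of all 8, and the log2 fold change was 0.49 (SE 1.53) and −1.67 without knockout replicate 2. Sesn1 was at 0.389, 43.0, 2.77 and 45.6 CPM in wild type and was seen in 1 knockout library (14.3 CPM). Sesn2, a target of the amino acid stress factor ATF4, had 7 and 23 counts in 2 wild-type libraries and 680 counts (27.1 CPM) in knockout replicate 3, with 0 in all other libraries. A level set by 1 library of 4 allows no statement about the genotype.

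The direct substrates S6 kinase and 4E-BP carry the signal to ribosomes. Rps6kb1, S6 kinase 1 (chr11:86498869-86544885), was at 136, 118, 111 and 388 CPM in wild type, against 250.3, 351, 128 and 0 CPM in knockout. Leaving out knockout replicate 4, where it was at 0, moved its log2 fold change from −0.05 (SE 1.37) to 0.36, and leaving out wild-type replicate 4 moved it to 0.59. Eif4ebp1, the inhibitor of cap-dependent translation 4E-BP1 (chr8:27260327-27275656), was at 94.4, 61.7, 57.7 and 56.0 CPM in wild type, against 58.3, 51.0, 78.8 and 0.104 CPM in knockout. Its log2 fold change of −0.52 (SE 1.32) was −0.12 without that library, and knockout replicates 1 to 3 lay close to the wild-type libraries. Rps6kb2, S6 kinase 2, was at 19.8 to 72.9 CPM in wild type, against 0 to 42.8 CPM in knockout, and it shares 1224 exon bases with Ptprcap, a lymphocyte gene on the other strand. Eif4ebp2 did not exceed 11.0 CPM in wild type or 0.278 CPM in knockout.

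**Figure D4:**
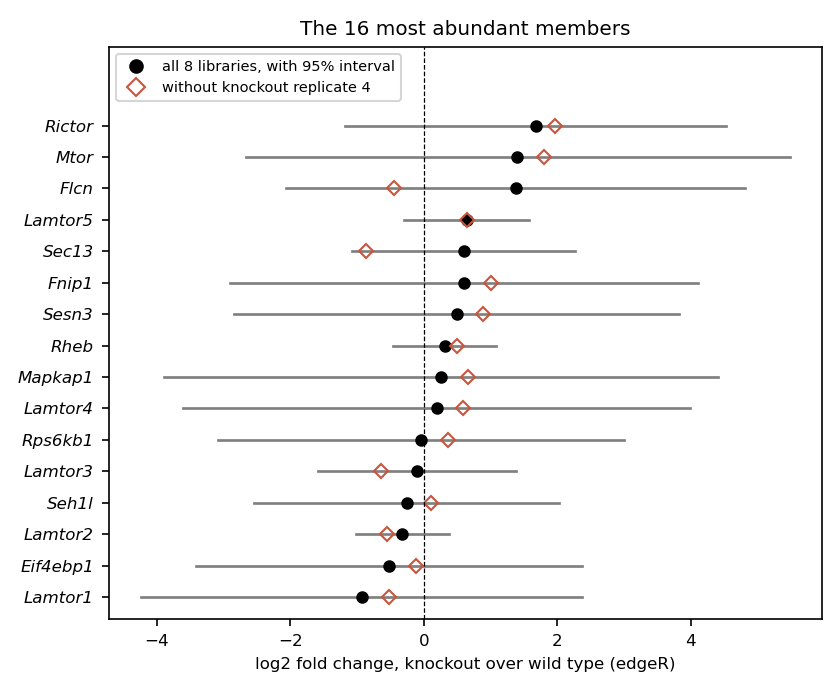
Black dots give the log2 fold change of knockout over wild type for the 16 members with the highest mean CPM, grey lines the 95% interval, and open diamonds the value without knockout replicate 4. Every interval crosses 0, and the diamonds of Flcn, Sec13, Rps6kb1 and Seh1l lie on the other side of 0 from their dots.

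The precision differed widely within the set. For Lamtor2, Rheb and Lamtor5 the 95% interval excluded changes beyond 0.493-fold and 2.99-fold of wild type. For Mtor it ran from 0.157-fold to 44.7-fold, and for Rps6kb1 from 0.117-fold to 7.99-fold, so changes of many-fold in either direction were not detectable at this spread. GC content moved with the fold change over the genes tested with a mean of at least 50 CPM (Spearman rho −0.351 across 3387 genes, which share the same 8 libraries). At all levels rho was −0.23 over the 8200 tested genes with a GC value, and −0.0881 over the 30 tested members.

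In edgeR the wider pathway had 0 calls as well. A second list held 76 further genes of PI3K and Akt, AMPK and REDD1, other substrates, the lysosomal V-ATPase and remaining subunits, of which 72 were among the symbols and 51 were tested. Of the 51, 24 had higher and 27 lower estimates, and 1 was at an unadjusted p under 0.05, where 3.84% of all tested genes were. In all, 4 of the 51 had every knockout library below every wild-type library, where 4.62% of all tested genes did, and 0 had the reverse (1.52%). DESeq2 called 3 of the 72 (Inpp5d, Pik3r2 and Gatsl2) and 3.63% of its genes, and limma voom called 0 and 0.0471% of its genes.

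Ddit4 encodes REDD1, which restrains mTORC1 through TSC (chr10:59949675-59951770). It was at 141, 170.5, 226 and 229 CPM in wild type, against 101, 130.2, 94.2 and 29.9 CPM in knockout, so the groups did not overlap. The log2 fold change was −1.11 (SE 0.50, interval −2.20 to −0.01), with an unadjusted p of 0.0478 and an adjusted p of 0.9999 in edgeR, so it did not pass. It was −0.83 without knockout replicate 4 and −0.46 with the GC offset, for a transcript with 57.9% GC. Inpp5d, the phosphatase SHIP1 that removes the PI3K product (chr1:87620312-87720510), was at 63.2, 88.3, 120.4 and 129.6 CPM in wild type, against 16.0, 21.2, 48.3 and 16.2 CPM in knockout. Its log2 fold change was −1.98 (SE 0.92), with an adjusted p of 0.9999 in edgeR and 0.0401 in DESeq2.

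The other genes of that kind were Pik3r5, Atp6ap1 and Gatsl2. Pik3r5, the regulatory subunit p101 of PI3K gamma, was at 11.4 to 74.0 CPM in wild type, against 0.0421, 0, 9.12 and 0 CPM in knockout. Its log2 fold change was −3.90 (SE 2.51), and −10.76 without knockout replicate 3, the library with nearly all of its knockout counts. Atp6ap1, an accessory subunit of the V-ATPase, was at 156 to 212 CPM in wild type, against 123, 96.7, 118 and 0 CPM in knockout (a log2 fold change of −1.16, SE 1.29; −0.76 without knockout replicate 4). Gatsl2, the older symbol of Castor2, was not tested because of the filter. It had counts in all 4 wild-type libraries (14.1, 1.12, 0.123 and 1.59 CPM) and 0 in knockout, at least 139-fold lower with the same 3 counts in place of 0. Wild-type replicate 1 held 506 of the 577 wild-type counts, and without it the bound, an alternative chosen after seeing the data, was 24.6-fold. Of genes within 1.5 times its wild-type mean, Gatsl2 included, 25.5% were at 0 in every knockout library. The summed MHC class II and myeloid markers were higher in 3 of the 4 knockout libraries that gave these low values, and knockout replicate 3, with 2202 CPM, lay inside the wild-type range. The summed markers of CD8 T and NK cells were at 317 to 502 CPM in wild type, against 182, 40.3, 236 and 123 CPM in knockout, below every wild-type library in all 4. Ncr1, an NK cell receptor among these 5 markers, was at 0 in all libraries. The part of either marker list in these differences was not tested.

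**Figure D5:**
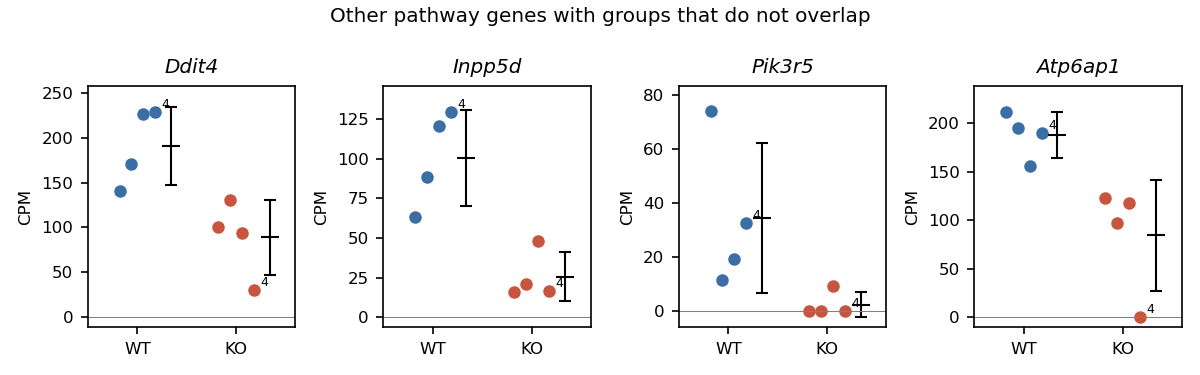
Points give CPM per library (WT, wild type; KO, knockout) for 4 further pathway genes, replicate 4 of each genotype is marked 4, and bars show mean ± SD (n = 4). In each panel all knockout libraries lie below all wild-type libraries, by the narrowest margin for Ddit4 (130.2 against 141 CPM) and Pik3r5 (9.12 against 11.4 CPM).

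The most abundant gene of each further list, apart from Ddit4, overlapped between genotypes. Pdcd4, a translation inhibitor that S6 kinase marks for decay, was at 365 to 960.2 CPM in wild type and 582 to 1349.6 CPM in knockout. Atp6v0e, a V-ATPase subunit, was at 226 to 412 CPM and 344 to 577 CPM. Pik3cd, the catalytic PI3K subunit of lymphocytes, was at 70.1 to 182 CPM and 27.0 to 105 CPM. Lars, the leucyl-tRNA synthetase that also takes part in leucine sensing, was at 47.1 to 134 CPM and 0 to 279.8 CPM.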

How the data were processed

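The authors deposited a table of raw counts by gene symbol, 1 column for each library, without normalization. Per the submitters' processing notes, mm10 was the build, and HISAT2 2.1.0, featureCounts and edgeR 3.28.1 were used. Annotation, strand setting, and duplicate or multi-mapping handling: not given in the sources used here. Libraries came from a low-input amplification kit, per the labels' protocols.

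From these counts, genes were filtered with filterByExpr (minimum count 10, minimum total 15), scaled by TMM and tested with edgeR 4.0.16 in R 4.3.3 (quasi-likelihood, robust, genotype as the only term, Benjamini-Hochberg over 8489 genes, threshold 0.05). CPM is counts over the TMM-scaled library size. Each SE was taken from the estimate and its F statistic, and intervals use the degrees of freedom of the test. Lengths, GC content (longest transcript) and exon overlaps are from GENCODE M21. Gene positions and promoters are from RefSeq. All are on GRCm38.p6, the assembly of mm10. The fit was tested on simulated counts in which 200 genes were changed. Those counts had the same mean level in all libraries of a genotype and a fixed spread. No simulated library lacked genes as knockout replicate 4 did, so that test does not speak to the power of the fit on these data.

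The members, lists and naming rule were chosen with earlier results of these data known. Fold changes are given for the 16 members with the highest mean CPM (at least 20), and for further pathway genes at an unadjusted p under 0.05 or without overlap. Alternatives tried were a stricter filter (minimum count 50) or none, other scalings, DESeq2 1.42.0, limma 3.58.1 (voom, with and without quality weights), a replicate block, a GC offset (loess, span 0.75, 96.6% of tested genes with GC), libraries left out and a threshold of 0.10.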

Additional observations from a re-analysis of the deposited data

Results flagged for a closer look

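A library was marked when its gap to the nearest of the 4 in its genotype, over the range of the 4, exceeded Dixon's critical value of 0.829. Chance marks about 1 in 20 groups of normally distributed values, which CPM with many zeros are not. Of 82 groups with any counts, from members and named pathway genes, 28 (34.1%) were marked here. Among tested members it was 16 of 60 groups (26.7%), and over all tested genes 13.6% of groups. These shares were not matched for level and their difference was not tested, so the number of marks is not read as a result about these genes. In 8 of the 28 the ratio was 1.0 because only 1 library had counts: Mlst8 in each genotype, Rragd and Wdr24 in wild type, and Akt1s1, Tbc1d7, Sesn1 and Sesn2 in knockout.

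Single high libraries of wild type were replicate 3 for Tsc1 (ratio 0.917) and Fnip2 (0.855) and replicate 1 for Nprl3 (0.893), Eif4ebp1 (0.852) and Gatsl2 (0.895). Replicate 4 was high for Rps6kb1 (0.910), at 388 CPM against 136 CPM in the next library. In knockout, replicate 1 was high for Rragd (0.932), Nprl2 (0.944), Nprl3 (0.996) and Mios (0.999), and replicate 2 for Depdc5 (0.920), Wdr24 (0.909) and Sesn3 (0.879). Knockout replicate 3 was high for Rptor (0.996), Seh1l (0.834), Pik3r5 (0.995) and Inpp5d (0.838). Knockout replicate 4 was high for Flcn (0.849), Wdr59 (0.949) and Sec13 (0.833).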

How the results depend on the processing

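In edgeR, 0 members and 0 genes passed under every filter, scaling, GC offset, left-out library and looser threshold tried. DESeq2 called 387 genes, 1 of them a member, and limma voom 4 genes with and 4 without quality weights, 0 of them members. DESeq2 was run without edgeR's filter, and 118 of its 387 calls were among the 8489 genes that edgeR tested. The cause of the difference between tools was not tested. With the replicate number as a block 0 members and 0 genes passed. Same-numbered libraries did not deviate together (correlations −0.0218, 0.0180, 0.0209 and 0.0530), so the numbers were not taken as pairs. Signs turned in limma voom for Flcn (−0.66), Fnip1 (−0.86), Lamtor4 (−2.00), Mtor (−0.86), Sec13 (−0.44) and Sesn3 (−2.13). With quality weights they turned for Flcn (−0.28), Sec13 (−1.08), Sesn3 (−0.98) and Rps6kb1 (0.20). With the block they turned for Lamtor4 (−0.71), Mapkap1 (−0.17), Sec13 (−0.27) and Sesn3 (−1.47). With the GC offset they turned for Lamtor2 (0.62), Lamtor3 (0.41) and the median of the tested members (0.05). Without the fourth library of each genotype they turned for Rps6kb1 (0.98) and Sec13 (−0.84). Leaving out 1 library at a time gave ranges that crossed 0 for Flcn (−0.45 to 2.14), Lamtor3 (−0.64 to 0.14), Lamtor4 (−0.27 to 0.67), Mapkap1 (−0.16 to 1.20) and Rps6kb1 (−0.60 to 0.59). The same held for Sec13 (−0.87 to 0.95), Seh1l (−1.78 to 0.11), Sesn3 (−1.67 to 0.91) and the median of the tested members (−0.50 to 0.11). The signs of Rheb, Lamtor5, Lamtor1, Rictor and Eif4ebp1 held in all alternatives run. Those of Ddit4, Inpp5d, Pik3r5 and Atp6ap1 held too, but their groups did not overlap, which was a ground for naming them. Leaving out libraries cannot make such groups overlap, so for these genes it is no check of the sign. A total of 3 counts over the pooled knockout libraries corresponds to 0.0349 CPM, for counting error only.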

Other observations

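The 37 members together held between 0.177% and 0.209% of the counts of a library, with knockout replicate 2 the highest and the other 7 at 0.191% or less. As CPM, which includes the TMM scaling, their summed level was 1827, 1761, 1846 and 1748 CPM in wild-type replicates 1 to 4 and 1735, 2521, 1863 and 1745 CPM in knockout replicates 1 to 4. The TMM factor of knockout replicate 2 was 0.836, which raises its CPM relative to its share. In knockout replicate 4, 83.4% of that sum came from 5 genes, Sec13, Lamtor2, Flcn, Rheb and Lamtor3. In the other libraries the top 5 members made up 57.7% to 63.2%. Rheb and Lamtor2 were among the top 5 in every library. The sum is dominated by the abundant members and no test was made of it.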
